A study of Mus musculus with 6 samples.

Results

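Receptors, Smads and Id genes of bone morphogenetic protein (BMP) signalling were examined in sorted mouse bone marrow cells. The members were the genes Bmpr1a, Acvr1, Acvrl1, Bmpr2, Smad1, Smad6, Smad7, Id1, Id2 and Id3. Every probe set whose platform annotation names exactly 1 gene, and that gene a member, was taken, which gave 25 probe sets of 34945 with 1 gene symbol and of 45101 in all. RNA of each sorted fraction was hybridised to an Affymetrix array, and each probe set has a log2 expression value on each array.

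The Grem1+ group held 3 arrays of marrow cells sorted for Grem1, with no other gate stated. Grem1 itself read 4.49, 4.14 and 8.61 in the Grem1+ fractions of mice 1, 2 and 3, against 3.69, 3.75 and 3.70 in their Grem1- fractions. It was thus bright in mouse 3 alone and near log2 4 in the other Grem1+ arrays. Grem1 differed by 2.04 (SE 1.02), short of the threshold at a limma adjusted p of 0.245, and by 0.60 without mouse 3. The Grem1- group held 3 arrays of non-recombined cells gated to lack CD45 (blood cells), CD31 (endothelium) and Ter-119 (red cells). That gate is stated for the Grem1- fraction alone. Both fractions came from the same 3 Grem1;TdTomato mice, bred on a C57BL/6J background, 6 to 8 weeks old and given tamoxifen by mouth. All samples share the reporter genotype and the tamoxifen. The labels do not state the regulatory sequence that drives the recombinase. They do not say whether animals were pooled.

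BMP ligands bind a complex of type I and type II receptors, both of them serine/threonine kinases. The type II receptor phosphorylates the type I receptor, which then phosphorylates Smad1 and its close relatives. These Smads join Smad4, enter the nucleus and activate target genes, among them the Id genes and the inhibitory Smads, Smad6 and Smad7, which feed back on the pathway. In the skeleton the pathway is known for its part in cartilage and bone formation, and Gremlin 1, the product of Grem1, binds BMPs outside the cell and blocks them.

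Arrays had like distributions, with log2 medians between 3.74 and 3.81 and with 44.9 to 45.5% of probe sets brighter than log2 4, the level below which a value is called dim here. Ptprc, the gene of CD45, averaged 9.15 in Grem1+ and 12.09 in Grem1- on its brighter probe set, the second despite the gate. The Grem1+ arrays ran from 7.29 to 10.56 there, and the difference of -2.94 missed the threshold (limma adjusted p = 0.0603). The other Ptprc probe set was dim on all Grem1+ arrays, at 2.53, 3.30 and 3.71, against 9.38, 8.37 and 8.81 in Grem1-. Of 12 chondrocyte markers 11 were higher in Grem1+ and 0 lower, and of 12 pan-haematopoietic markers 0 were higher and 8 lower. Of the latter, Cd48 was above log2 4 only in Grem1-, and without it 7 of 11 were lower. Of 6 erythroid markers 0 were higher and 4 lower. Gata1 and Hemgn were above log2 4 only in Grem1-, and without them 2 of 4 were lower. Over all 10151 genes tested with 1 probe set each, 11.1% were higher and 7.81% lower. Summed over its members, the chondrocyte list stood at log2 14.99 to 15.19 in Grem1+ and 12.42 to 12.93 in Grem1-, and the pan-haematopoietic list at 12.06 to 13.12 in Grem1+ and 14.57 to 14.73 in Grem1-. The erythroid list stood at 10.69 to 11.48 in Grem1+ and 12.46 to 12.67 in Grem1-, the second despite the Ter-119 gate. Its defining marker Hba-a1 failed the filter on dim values. As a sign of RNA length, the 3' probe set of the Gapdh control exceeded its 5' probe set by 3.58 ± 0.51 log2 units in Grem1+ arrays and by 2.66 ± 0.34 in Grem1- arrays (SD, n = 3 each). The part of these shifts in the results below was not tested. The labels call all animals male, but Xist, which is transcribed from the inactive X chromosome, read 10.60 in the Grem1+ and 11.04 in the Grem1- array of mouse 3, while no other array exceeded 2.99, so differences without mouse 3 are also given for the member probe sets past the threshold.

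Across the family, Acvr1, Smad1, Smad7, Id2 and Bmpr1a each had at least 1 probe set that was higher in Grem1+, and Acvrl1 was lower on both of its probe sets. A probe set was tested when it lay above log2 4 on at least 3 of the 6 arrays, which 19 of the 25 did. Of these 19, 6 were higher and 2 lower in Grem1+ at an adjusted p under 0.05 (limma with the mouse as a block, Benjamini-Hochberg over 18157 probe sets). Among all 18157 probe sets tested, 10.1% were higher and 7.76% lower. An Acvr1 and an Acvrl1 probe set passed the filter only through the group in which they were high, and without these 2 the counts were 5 higher and 1 lower of 17. The 3 Grem1+ arrays lay above all Grem1- arrays for 12 of the 19 probe sets and below them for 2, against 21.6% and 20.4% of all probe sets. Acvr1 1448460_at is among the 12 and Acvrl1 1451604_a_at among the 2, and how they passed the filter fixed their separation in advance. The median difference of the 19, with these 2 included, was 1.36, and that of all probe sets tested was -0.01 (log2, Grem1+ minus Grem1-). Without the filter on dim values, 5 of the 8 calls were lost, those of Acvr1 1416786_at, Acvrl1 1451604_a_at, Bmpr1a, Smad1 and Smad7 (adjusted p = 0.0583 to 0.0868). In fits with the block that dropped mouse 1, 2 or 3, 0 of the 18157 probe sets passed in limma. In these fits 11, 13 and 11 of the 19 had an unadjusted p under 0.05, in that order. Among all 18157 probe sets, the counts in the same order were 5158, 5085 and 4967.

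**Figure D1:**
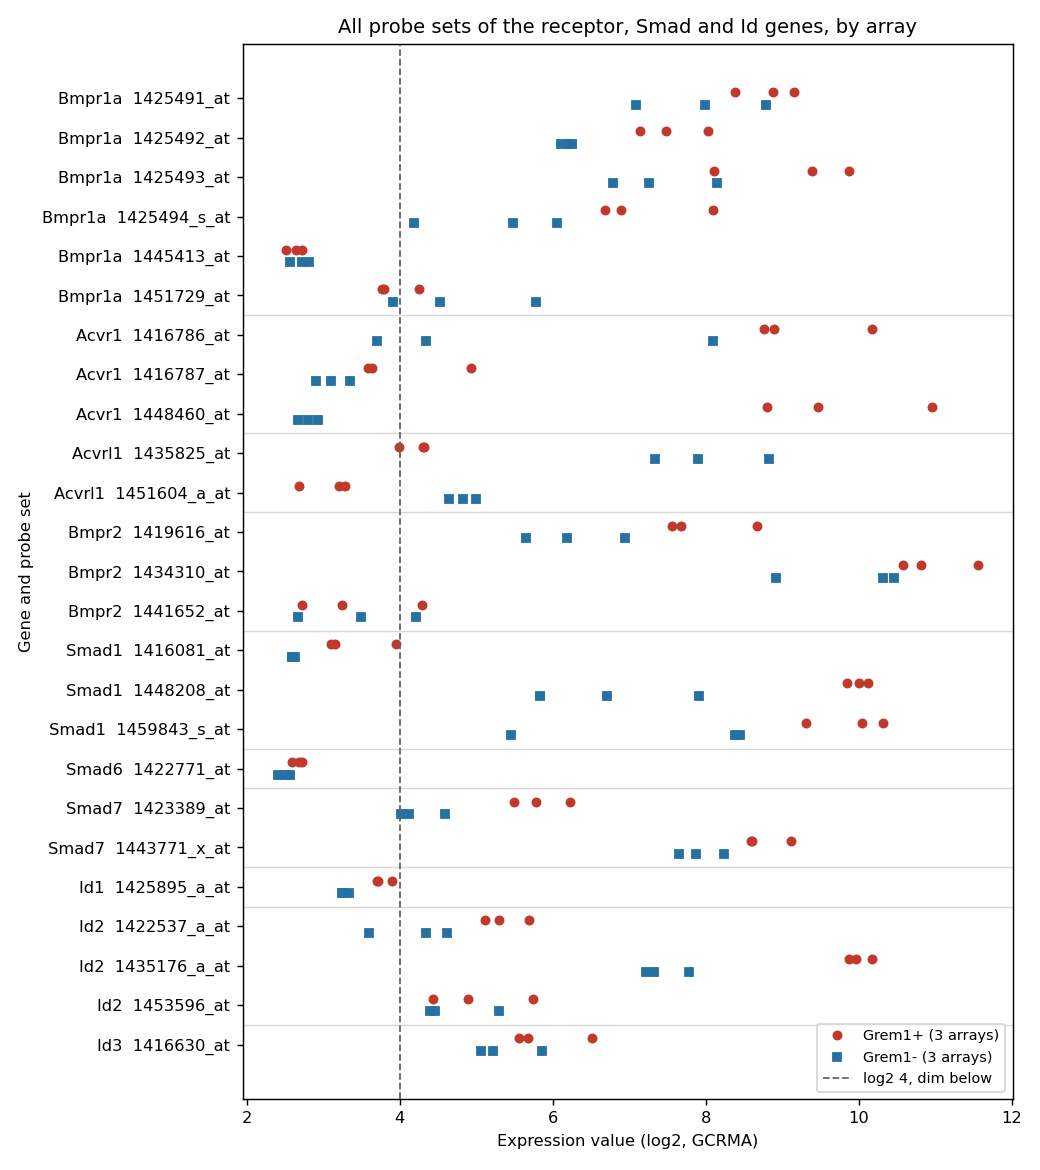
Log2 expression values (horizontal axis) of all 25 probe sets of the 10 genes, with Grem1+ arrays as red circles above Grem1- arrays as blue squares, 3 each, and a dashed line at log2 4. Acvr1 1448460_at shows the widest gap between the groups, the Acvrl1 probe sets lie lower in Grem1+, and Smad6 and Id1 lie below log2 4 on every array.

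Among the type I receptors, Acvr1 was the member with the largest difference. Acvr1 encodes ALK2, a type I receptor for BMPs and activins. On probe set 1448460_at the values were 10.95, 8.80 and 9.47 in the Grem1+ fractions of mice 1, 2 and 3, against 2.80, 2.67 and 2.94 in their Grem1- fractions. All Grem1+ arrays were bright and all Grem1- arrays dim, so only a bound is given. With dim values set to log2 4, this probe set was at least 53.4-fold higher in Grem1+ (limma adjusted p = 0.00992). In bulk samples of this kind, more cells that express a gene and more RNA per cell cannot be told apart.

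The 3 Acvr1 probe sets did not give 1 size of difference. On 1416786_at the values were 10.17, 8.89 and 8.76 in Grem1+, against 8.09, 3.70 and 4.34 in Grem1-. The groups did not overlap, but the Grem1- array of mouse 1 lay far above the other two. The difference of 3.89 (SE 0.69) passed the threshold (limma adjusted p = 0.0323), though without the mouse as a block it did not (adjusted p = 0.0555, and 0.232 and 0.219 when mouse 2 or mouse 3 was also left out). The third probe set, 1416787_at, was above log2 4 on 1 array only, the Grem1+ array of mouse 1 at 4.92, and was not tested. Without mouse 3 the differences were 7.14 for 1448460_at and 3.63 for 1416786_at.

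Acvrl1 moved the other way. It encodes ALK1, a type I receptor for BMP9 and BMP10 best known from endothelium. Probe set 1435825_at read 4.31, 3.99 and 4.32 in Grem1+, against 7.33, 7.90 and 8.82 in Grem1-. The groups were far apart, with Grem1+ near the dim limit, and the difference was -3.81 (SE 0.40, limma adjusted p = 0.0135). It was -3.47 without mouse 3. Probe set 1451604_a_at was dimmer, at 3.29, 2.68 and 3.20 in Grem1+ and 4.64, 4.996 and 4.83 in Grem1-. It was at least 1.77-fold lower in Grem1+ with dim values set to log2 4, and its call (limma adjusted p = 0.0366) was lost when the fit itself used that floor (adjusted p = 0.113) and, without the block, whichever mouse was left out (adjusted p = 0.0512 to 0.0763). Without mouse 3 its difference was -1.83.

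Of 6 endothelial markers tested, 0 passed in either direction in limma. Their differences were below 0 for 5 of the 6, with a median of -0.44, and both figures include Pecam1 and Tek. At an unadjusted p under 0.05 there were 2, Pecam1 at -1.50 and Tek at -2.81, against 6360 of all 18157 probe sets in the same fit. Both were dim on all Grem1+ arrays and passed the filter only through Grem1-, where they are high, which fixed their sign. Without them 4 markers were left, of which 0 passed. These differed by -0.68 for Esam, -0.21 for Egfl7, -0.09 for Erg and 0.11 for Vwf. The summed level of the 6 ran from log2 8.00 to 8.36 in Grem1+ and from 8.16 to 9.16 in Grem1-. Of the defining markers, Cdh5 and Kdr failed the filter on dim values and Pecam1 was below log2 4 on all Grem1+ arrays. Macrophage and monocyte markers were lower for 3 of 6 and higher for 0, with summed levels of 6.03 to 10.26 in Grem1+ and 11.76 to 12.06 in Grem1-. The defining marker Adgre1 failed the filter. The part of these cells in the Acvrl1 result was not tested.

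Bmpr1a encodes ALK3, the type I receptor that cartilage is known to need for BMP signalling together with ALK6. Of its 6 probe sets 5 were tested. Probe set 1425494_s_at read 6.90, 6.68 and 8.10 in Grem1+, against 4.18, 5.48 and 6.05 in Grem1-, and was higher by 1.99 (SE 0.41, limma adjusted p = 0.0429), though not without the mouse block (adjusted p = 0.0603, and 0.113 to 0.176 when a mouse was also left out) and not with limma's trend and robust options (adjusted p = 0.0540). It was 1.96 without mouse 3. The groups did not overlap, and the _s_at ending marks a probe set that may detect other transcripts as well.

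The other Bmpr1a probe sets did not pass. Probe set 1425492_at read 8.03, 7.14 and 7.48 in Grem1+ and 6.24, 6.11 and 6.21 in Grem1-, again without overlap. Its difference of 1.36 (SE 0.31) just missed the threshold (limma adjusted p = 0.0545) and passed without the block (adjusted p = 0.0264) or with the stricter filter of log2 above 6 (adjusted p = 0.0418). For 1425493_at, at 9.87, 8.10 and 9.38 in Grem1+ and 6.79, 7.25 and 8.14 in Grem1-, the groups overlapped and the difference was 1.72 (SE 0.54). Probe set 1425491_at, at 8.38, 9.15 and 8.87 in Grem1+ and 7.09, 7.99 and 8.78 in Grem1-, also overlapped and differed by 0.85 (SE 0.38). These 4 probe sets thus gave positive differences of 0.85 to 1.99. The fifth tested one, 1451729_at, lay near the dim limit at 3.77, 3.80 and 4.25 in Grem1+ and 5.79, 3.91 and 4.52 in Grem1-, with a difference of -0.80 (SE 0.50), and 1445413_at was below log2 4 on all 6 arrays.

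Bmpr2 encodes the type II receptor that is selective for BMPs. Its brightest probe set, 1434310_at, read 11.55, 10.57 and 10.80 in Grem1+, against 10.46, 8.91 and 10.32 in Grem1-. The lowest Grem1+ array lay only just above the highest Grem1- array, and their difference, 1.08 (SE 0.36), missed the threshold (limma adjusted p = 0.116). Probe set 1419616_at read 7.56, 7.68 and 8.67 in Grem1+ and 5.66, 6.95 and 6.18 in Grem1-, a difference of 1.71 (SE 0.45). It did not pass either (limma adjusted p = 0.0712), but passed without the mouse block (adjusted p = 0.0447). The 95% intervals were 0.11 to 2.05 for 1434310_at and 0.50 to 2.91 for 1419616_at. On 1441652_at, which was not tested, 2 of 6 arrays lay above log2 4 and the groups overlapped.

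**Figure D2:**
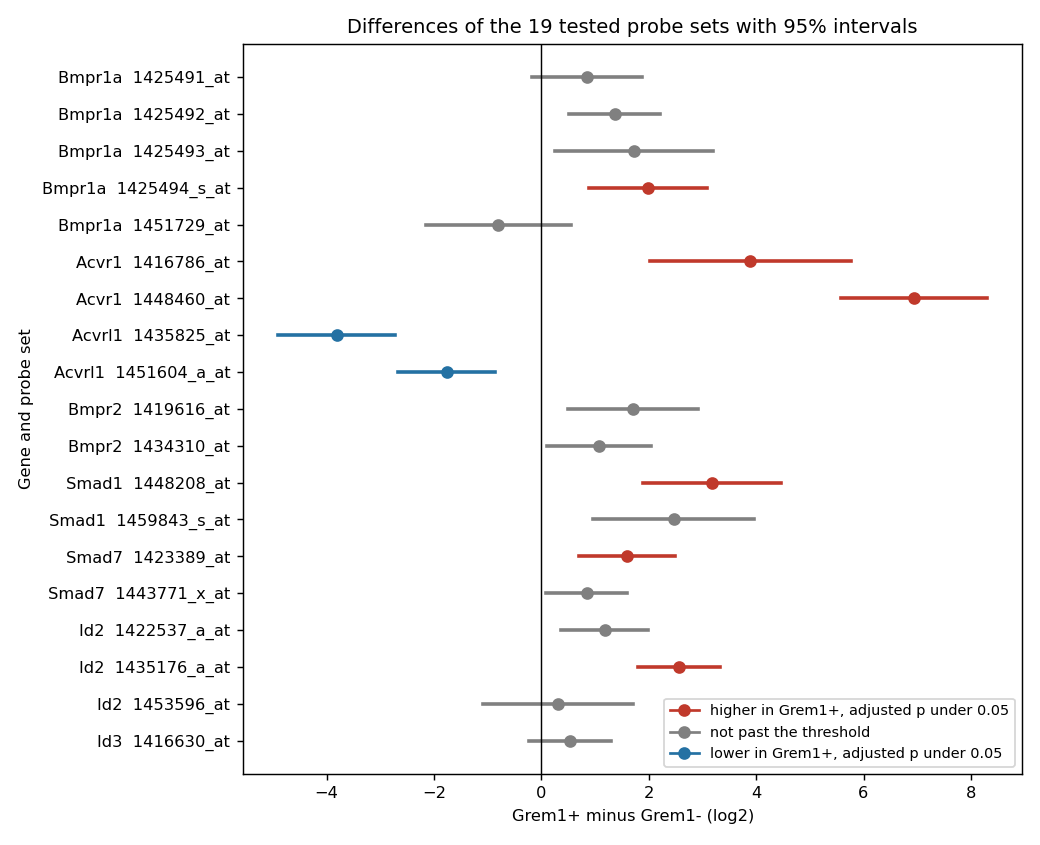
Log2 difference, Grem1+ minus Grem1-, of each of the 19 tested probe sets (points) with its 95% interval from limma (lines), coloured by whether and in which direction it passed an adjusted p of 0.05. Acvr1 1448460_at at 6.94 stands farthest to the right and Acvrl1 1435825_at at -3.81 farthest to the left. Dim values are as deposited here.

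Smad1, the Smad that BMP receptors phosphorylate, was higher in Grem1+. Probe set 1448208_at read 10.11, 9.998 and 9.85 in Grem1+, close together, against a wider 7.90, 5.83 and 6.71 in Grem1-. The difference was 3.17 (SE 0.47), or 9.01-fold (limma adjusted p = 0.0232). It was 3.19 without mouse 3. Without the block the call was kept without mouse 1 and lost without mouse 2 or mouse 3 (adjusted p = 0.0570 and 0.0782).

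On the second Smad1 probe set, 1459843_s_at, the values were 10.04, 9.31 and 10.31 in Grem1+ and 8.45, 5.46 and 8.38 in Grem1-. The Grem1- array of mouse 2 was the lowest of its group on both probe sets. The difference of 2.46 (SE 0.55) just missed the threshold (limma adjusted p = 0.0518) and passed with the stricter filter (adjusted p = 0.0336) or limma's trend and robust options (adjusted p = 0.0395). The third, 1416081_at, stayed below log2 4 on all arrays and was not tested.

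Of the inhibitory Smads, Smad7, which blocks type I receptors and recruits ubiquitin ligases to them, was higher on 1 of 2 probe sets. On 1423389_at it read 5.77, 6.23 and 5.50 in Grem1+, against 4.59, 4.12 and 4.02 in Grem1-, a difference of 1.59 (SE 0.33, limma adjusted p = 0.0446). The call was lost with limma's trend and robust options (adjusted p = 0.0522) and, without the block, whichever mouse was left out (adjusted p = 0.0724 to 0.109). It was 1.65 without mouse 3. Probe set 1443771_x_at, whose ending marks possible cross-hybridisation, read 8.59, 8.60 and 9.11 in Grem1+ and 7.65, 7.87 and 8.24 in Grem1-. Its groups did not overlap either, but 0.84 (SE 0.28) was too small a difference to pass (limma adjusted p = 0.114).

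Smad6, the inhibitor most selective for BMP receptors, was dim throughout. Its single probe set read 2.68, 2.73 and 2.59 in Grem1+ and 2.56, 2.41 and 2.49 in Grem1-. No change of Smad6 could be measured at this signal, and none was tested.

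The Id proteins carry a helix-loop-helix domain without a DNA-binding region and hold E proteins away from DNA. Id2 was the only Id gene with a probe set past the threshold. On 1435176_a_at it read 9.96, 10.17 and 9.87 in Grem1+, against 7.32, 7.78 and 7.22 in Grem1-. Both groups were narrow and well apart, and Id2 was higher by 2.56 (SE 0.28), or 5.90-fold (limma adjusted p = 0.0145). The differences within mice 1, 2 and 3 were 2.64, 2.39 and 2.65, and the mean without mouse 3 was 2.51.

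The other Id2 probe sets were dimmer and gave less. Probe set 1422537_a_at read 5.29, 5.69 and 5.11 in Grem1+ and 4.35, 4.62 and 3.60 in Grem1-, without overlap, with 1.18 (SE 0.30) as the difference, short of the threshold (limma adjusted p = 0.0665). On 1453596_at, at 4.43, 5.74 and 4.89 in Grem1+ and 5.30, 4.40 and 4.46 in Grem1-, the groups overlapped. That difference was 0.30 (SE 0.52), with a 95% interval of -1.10 to 1.70, and it was -0.22 without mouse 2.

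Id1 and Id3, which are widely used as readouts of BMP signalling, did not show the Id2 pattern past a threshold. Id3 read 5.68, 6.51 and 5.56 in Grem1+, against 5.06, 5.85 and 5.22 in Grem1-. Each Grem1+ array lay above its own Grem1- partner, by 0.62, 0.65 and 0.33, but the groups overlapped. The mean difference was 0.53 (SE 0.28), with a 95% interval of -0.23 to 1.30 (limma adjusted p = 0.265). Id1 stayed below log2 4 on all 6 arrays, at 3.70, 3.90 and 3.72 in Grem1+ and 3.26, 3.33 and 3.24 in Grem1-, and was not tested. A difference between the responses of Id genes was not tested.

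**Figure D3:**
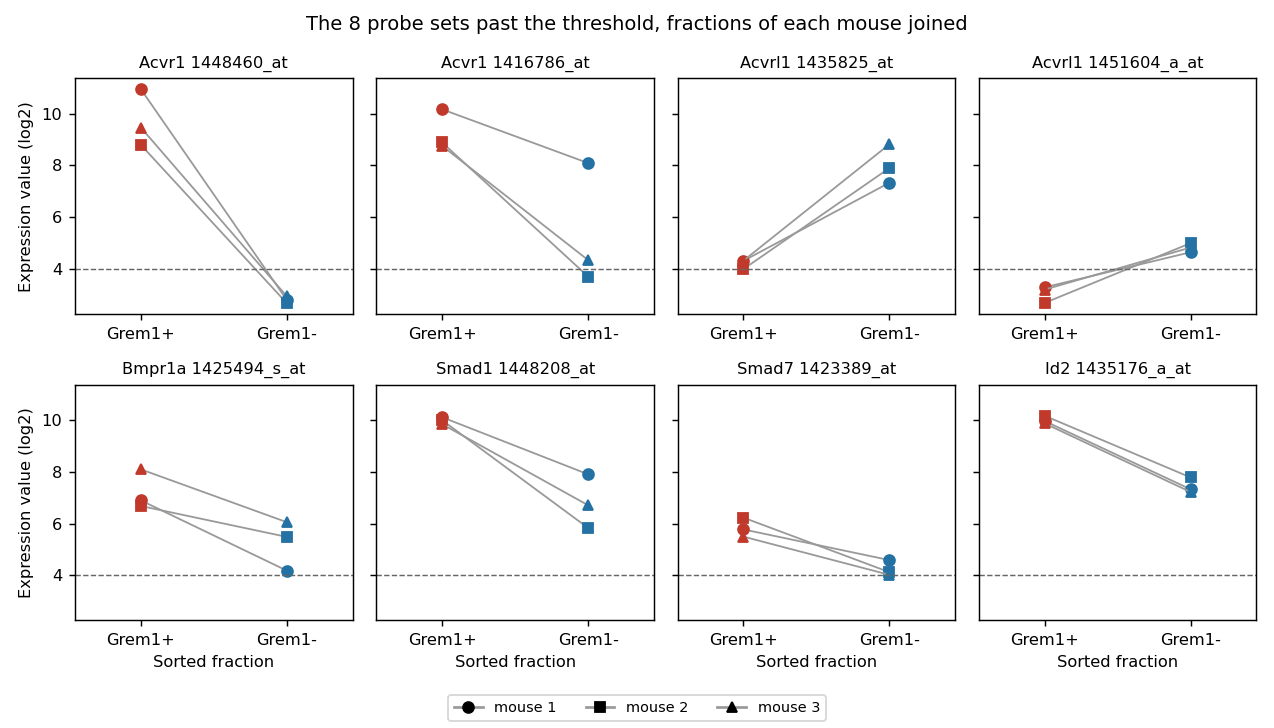
Log2 expression values of the 8 probe sets past the threshold, with Grem1+ left and Grem1- right and a line joining the 2 fractions of each mouse. In every mouse Acvr1, Bmpr1a, Smad1, Smad7 and Id2 were higher and both Acvrl1 probe sets lower in Grem1+. The dashed line marks log2 4.

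Promoter sequence is shown for the members with the largest positive differences, Acvr1, Smad1 and Id2, and for Id3 as the Id gene beside Id2 that was bright enough to test. The windows are the 250 bases before the annotated start, 5′ to 3′, from RefSeq (build GRCm38.p6). They were taken for 7 of the 10 members. Any member on a chromosome left out of the search has no window here, while the share over all windows includes that chromosome. Capitals mark GGCGCC, a palindrome that BMP-activated Smads are known to bind, and the Smad core GTCTG or its reverse complement CAGAC, all searched on both strands.
Acvr1, chr2:58566829-58567078, minus strand: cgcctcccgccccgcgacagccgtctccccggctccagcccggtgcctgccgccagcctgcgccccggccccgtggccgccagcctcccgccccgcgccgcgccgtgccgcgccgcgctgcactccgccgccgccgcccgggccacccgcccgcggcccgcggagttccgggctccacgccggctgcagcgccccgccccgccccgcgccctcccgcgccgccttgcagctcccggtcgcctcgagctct
Smad1, chr8:79399429-79399678, minus strand: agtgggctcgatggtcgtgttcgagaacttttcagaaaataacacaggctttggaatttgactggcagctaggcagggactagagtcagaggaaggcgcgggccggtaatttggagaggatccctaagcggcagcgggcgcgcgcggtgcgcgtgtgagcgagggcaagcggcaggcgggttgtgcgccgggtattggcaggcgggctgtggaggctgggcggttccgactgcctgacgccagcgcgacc
Id2, chr12:25096093-25096342, minus strand: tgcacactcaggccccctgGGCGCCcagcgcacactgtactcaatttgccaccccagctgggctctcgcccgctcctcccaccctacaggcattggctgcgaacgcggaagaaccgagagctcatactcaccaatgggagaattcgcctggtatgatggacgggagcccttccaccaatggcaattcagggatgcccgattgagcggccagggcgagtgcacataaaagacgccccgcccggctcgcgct
Id3, chr4:136143572-136143821, plus strand: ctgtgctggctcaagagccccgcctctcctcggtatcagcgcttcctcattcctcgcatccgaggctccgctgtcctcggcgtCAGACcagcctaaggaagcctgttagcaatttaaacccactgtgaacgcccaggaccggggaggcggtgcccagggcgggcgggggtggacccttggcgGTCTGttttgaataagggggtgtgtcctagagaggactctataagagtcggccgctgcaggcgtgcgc
GGCGCC was found in 3 of the 7 windows, those of Id2, Bmpr2 and Bmpr1a, and in 9.59% of all 32851 promoter windows of that length. GTCTG or CAGAC stood in 1 of the 7, that of Id3, with 2 matches, and in 42.2% of all windows. The Acvr1 and Smad1 windows held neither motif. The 7 windows were 62.8 to 85.6% G and C, with Acvr1 at the top of that range. A match describes these letters in this window and is not a measured binding site.

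The other genes of the pathway were described with 1 probe set each, the passing one with the highest mean. Of 92 listed genes 66 could be tested, of which 14 were higher and 4 lower in Grem1+, and their median difference was 0.59. Of the 66, 3 passed the filter only through the group where they were high, and without them 13 of 63 were higher and 4 lower. The median of 0.59 includes these 3. Without the filter 11 were higher and 0 lower. Over all 10151 genes represented in this way, 11.1% were higher and 7.81% lower, with a median of 0.04. Lists are described by these counts and were not tested as sets.

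Of 10 other receptors and co-receptors tested, 3 were higher and 0 lower, with a median of 0.96. Neo1 encodes neogenin, a receptor for the BMP co-receptors of the RGM family. It read 12.17, 11.99 and 12.21 in Grem1+, against 5.46, 4.89 and 5.84 in Grem1-, a difference of 6.73 (SE 0.31, limma adjusted p = 0.00989), and its second probe set gave 5.65. Tgfbr3, or betaglycan, a co-receptor of TGF-beta, was higher by 3.26 (SE 0.38, limma adjusted p = 0.0155) and Tgfbr2, the type II receptor of TGF-beta, by 1.87 (SE 0.38, limma adjusted p = 0.0431). The remaining 7 ranged from -0.39 for Tgfbr1 to 1.40 for Acvr2a, a type II receptor that activins and BMPs share, which just missed the threshold (limma adjusted p = 0.0516).

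Of 4 other Smads tested, 0 passed in limma, with a median of 0.37. An unadjusted p under 0.05 was found for 0 of them, against 6360 of all 18157 probe sets in the same fit. Smad5, which shares the receptors of Smad1, read 9.26, 8.93 and 9.64 in Grem1+ and 8.24, 8.52 and 7.43 in Grem1-, with a difference of 1.21 (SE 0.45, limma adjusted p = 0.146). The difference was 0.71 without mouse 3, while the mean of the Smad5 probe sets, 1.31, passed (adjusted p = 0.0319). Smad4, the common partner, differed by 0.59 (SE 0.38). Smad2 and Smad3, which act downstream of TGF-beta and activin, differed by 0.14 (SE 0.40) and 0.00 (SE 0.43).

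Among 35 regulators of Smads and receptors, 6 were higher and 3 lower, with a median of 0.66. Pmepa1, an inhibitor of TGF-beta Smad signalling, read 12.47, 12.41 and 12.49 in Grem1+, against 9.89, 9.21 and 9.33 in Grem1-, and was higher by 2.98 (SE 0.31, limma adjusted p = 0.0131). Its probe sets gave 1.35 and 2.98. Wwp2, a ubiquitin ligase, was higher by 2.78 (SE 0.41, limma adjusted p = 0.0226), with probe sets from -0.60 to 2.78. The lower genes were Tob2 with -2.69 (SE 0.59), the acetyltransferase Ep300, a coactivator of Smads, with -2.66 (SE 0.51), and the deubiquitinase Usp15 with -1.79 (SE 0.37). The Tob2 call (limma adjusted p = 0.0490) was lost with median centring (adjusted p = 0.0501). Its probe set may be shared with other transcripts, and the brightest unshared one gave 0.30 and no call (limma adjusted p = 0.617). The 4 passing Tob2 probe sets ran from -3.06 to 0.30, and 2 of them were lower. Their mean, -1.36, did not pass (limma adjusted p = 0.0522).

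Of 9 other BMP targets tested, 5 were higher and 0 lower, with a median of 3.10, while 14 of the 23 listed were not tested. Hey1, a transcriptional repressor, was higher by 4.74 (SE 0.58), and its Grem1- arrays stood at 3.26, 5.62 and 3.68. Sox9, the master transcription factor of cartilage, differed by 4.58 (SE 0.41), with probe sets from 0.95 to 6.90. The homeobox gene Dlx5 differed by 3.76 (SE 0.41) and Snai2 by 3.40 (SE 0.50), and Sp7, a transcription factor of osteoblasts, was at least 4.26-fold higher. Sp7 passed the filter on dim values only through Grem1+, where it is high, and without it 4 of 8 were higher. Sp7 is also the middle value of the list, and stands at 2.09 with dim values set to log2 4. The limma adjusted p-values of these 5 ran up to 0.0227. Sox9 and Sp7 are also among the chondrocyte and osteoblast markers. Id4, the fourth Id gene, read 7.89, 6.32 and 7.66 in Grem1+ and 7.48, 7.39 and 7.01 in Grem1-, with a difference of 0.00 (SE 0.46).

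Among 8 E proteins and other partners, 0 were higher and 1 lower in limma, with a median of 0.00. An unadjusted p under 0.05 was found for 4, against 6360 of all 18157 probe sets in the same fit. Of these 4 genes, 1 was above 0 and 3 below. Of those 3, Tal1 and Lyl1 passed the filter on dim values only through Grem1-, which fixed their sign. The median of 0.00 includes them, at -3.17 and -1.11. Without them 6 genes were left, of which 0 were higher and 1 lower. Of these 6, Twist1 differed by 1.38 (SE 0.37) and Ets1 by 0.69 (SE 0.31), and neither passed. The E proteins themselves, Tcf3, Tcf4 and Tcf12, which Id proteins bind directly, differed by -0.49 (SE 0.35), 0.55 (SE 0.33) and 0.49 (SE 0.43) and did not pass. The lower gene was Ebf1, a factor of B cells and stroma, which read 4.17, 6.73 and 6.03 in Grem1+, against 6.66, 7.94 and 8.77 in Grem1-. Its groups overlapped, and the difference of -2.15 (SE 0.42) passed with the block (limma adjusted p = 0.0395) and not without it (adjusted p = 0.107). Without the block it also did not pass whichever mouse was left out (limma adjusted p = 0.0823 to 0.321). The 4 passing Ebf1 probe sets ran from -4.33 to -1.91, and 2 of them were lower.

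**Figure D4:**
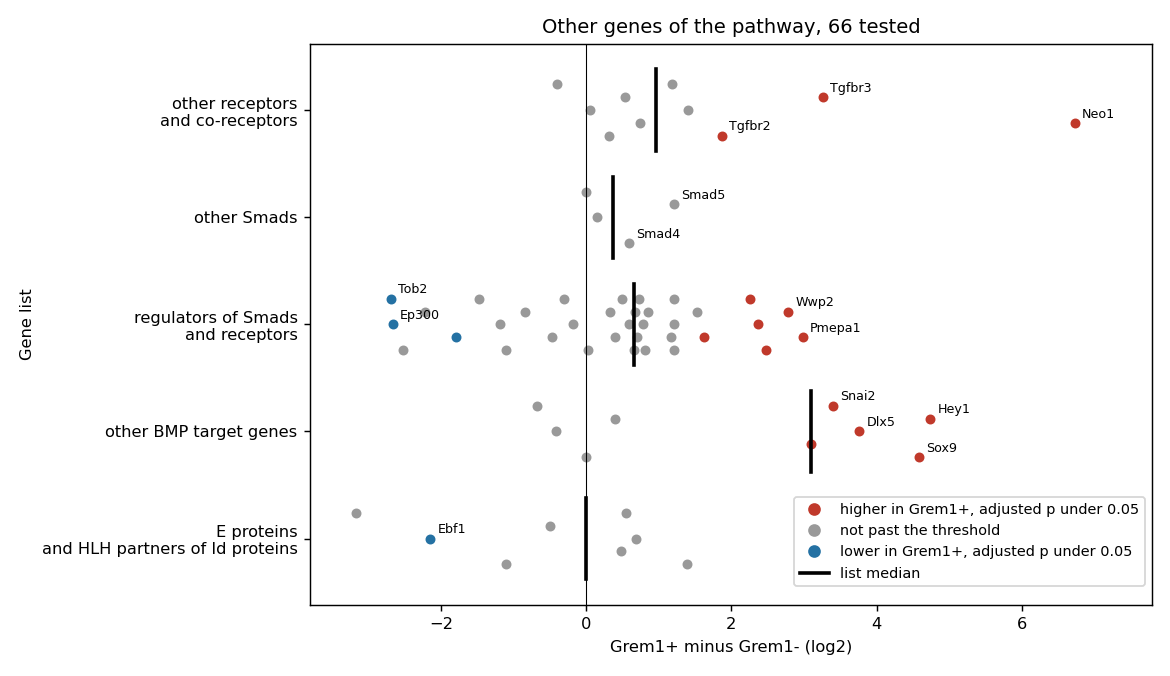
Log2 difference, Grem1+ minus Grem1-, of the 66 tested genes in 5 pathway lists, 1 point per gene, coloured by whether and in which direction it passed an adjusted p of 0.05, with a black bar at each list's median. The genes named by rule are labelled, from Neo1 at 6.73 to Tob2 at -2.69.

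Genes whose 6 array values ran most like those of Acvr1 1448460_at and Acvrl1 1435825_at were taken from 10143 other genes by the root mean square difference after centring each on its own mean. For Acvr1 these were Nckap5, Lmo7 and Mb21d2, at 0.27, 0.38 and 0.43 log2 units. Nckap5 read 11.39, 9.23 and 10.52 in Grem1+ and 3.24, 3.29 and 3.10 in Grem1-. For Acvrl1 they were Arhgap9, Rab3d and Lin28a, at 0.15, 0.25 and 0.26. Arhgap9 read 5.02, 4.43 and 5.21 in Grem1+ and 7.93, 8.64 and 9.35 in Grem1-.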

How the data were processed

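The deposited values are log2 signals, 1 per probe set and array. GCRMA is named in the submitters' processing notes, with no version or settings, and the log2 unit was inferred from the range of the deposited values, 0.798 to 14.05. Per the labels' protocols, total RNA was isolated with the RNAqueous-Micro kit and amplified by the NuGEN Ovation One-Direct method before biotin labelling. The platform annotation gave 1 gene symbol to 34945 probe sets, several to 932 and none to 9160, and another 64 were controls. RefSeq (GRCm38.p6) changed 0 member symbols.

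limma 3.58.1 in R 4.3.3 was fitted to the 18157 probe sets with 1 symbol and log2 above 4 on at least 3 arrays, with mouse as a blocking factor. Tests were two-sided, with Benjamini-Hochberg adjustment and a threshold of 0.05, on 2 residual plus 2.28 prior degrees of freedom. The script was tested on simulated data. The pairing rests on the design text, which says that the fractions are matched, with the title's number taken as the mouse. Deviations of same-numbered arrays correlated at 0.014, 0.052 and 0.031. With 3 arrays per group, their number limits the precision. Named genes were all members, up to 4 called genes per list with the largest difference (2 where none passed), the genes most like Acvr1 and Acvrl1, Ptprc and Pecam1. Other names were chosen after their values were seen. The members, lists and rules were chosen with earlier results of these data known.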

Additional observations from a re-analysis of the deposited data

How the results depend on the processing

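The member counts of 6 higher and 2 lower and the pathway counts of 14 higher and 4 lower stayed within 1.5 times without the replicate block, which gave 6 and 2, and 17 and 5, and under quantile normalization, median centring, limma's trend and robust options and with unnamed probe sets added. Without the filter on dim probe sets, 2 members were higher and 1 lower, and 0 pathway genes were lower, while limma called 1761 of 34945 probe sets against 3235 of 18157, and 7942 had an unadjusted p under 0.05. The stricter filter (log2 above 6) and values below log2 4 set to 4 each left 1 lower member. With 1 probe set per gene, 2 members of 8 were higher and 1 lower, against 2055 of 10151 genes called in either direction. Smad1, Smad7 and Bmpr1a did not pass there, where their brightest probe sets stood for them (limma adjusted p = 0.0507, 0.0936 and 0.186). With a mouse left out, higher members numbered 0 to 4 and lower members 0 to 1, and pathway genes 0 to 11 and 0 to 2. The counts of 0 came with the block kept, where 1 residual degree of freedom per probe set remained, limma called 0 of 18157 probe sets and 4967 to 5158 had an unadjusted p under 0.05. Without the block, Acvr1 1448460_at, Acvrl1 1435825_at and Id2 1435176_a_at passed whichever mouse was left out (adjusted p at most 0.0395 over all alternatives but those with the block and a mouse left out). Likewise without the block, the calls of Smad7 1423389_at, Bmpr1a 1425494_s_at and Acvrl1 1451604_a_at were lost whichever mouse was left out, and those of Smad1 1448208_at and Acvr1 1416786_at without mouse 2 or mouse 3. The direction reversed for Id2 1453596_at without mouse 2 (-0.22, with 0.89 as the highest value with a mouse left out) and for Tob2 without probe sets ending in _x_at, _s_at or _a_at (0.30), neither past the threshold. Dim signal limits Smad6 and Id1, which could not be tested.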
